A study of Mus musculus with 12 samples.

Results

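The RNAs of 8 genes known as regulators of Myod1 RNA, or as close relatives of such regulators, were followed in muscle stem cells (MuSCs) that were freshly isolated, cultured, or cultured under compression. The genes were Zfp36, Zfp36l1, Zfp36l2, Elavl1, Stau1, Stau2, Hnrnpd and Pabpn1. They were taken by name and are 8 of the 55335 genes with counts. All 8 passed the filter on low counts.

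RNA-seq was performed on 12 libraries, with 3 in each of 4 groups. All cells came from the hindlimbs of Pax7-ZsGreen mice aged 3 to 6 months, in which the green fluorescent protein ZsGreen is driven by the promoter of Pax7, and were sorted by FACS for ZsGreen. F cells were freshly isolated and sorted into TRIzol. Uncompressed cells stayed on Matrigel and fibronectin in growth medium for 2 days (2d-U) or 5 days (5d-U). 2+3d-C cells were cultured for 5 days in all, with the last 3 days under a device that limits the cell height to about 4 μm. No group carried a gene deletion or received a drug, and libraries are named here by group and replicate number.

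MyoD, the product of Myod1, is the transcription factor that marks activation and commitment of MuSCs, and quiescent MuSCs can hold its RNA while making little protein. Proteins of the Zfp36 family bind AU-rich elements in the 3′ untranslated region (UTR) of short-lived RNAs and recruit deadenylases that shorten the poly(A) tail, and Zfp36 (tristetraprolin) acts in this way on Myod1 in satellite cells. Elavl1 (HuR) binds similar elements and stabilizes RNA, Hnrnpd (AUF1) promotes decay of some bound RNAs, Stau1 represses translation of Myod1 in quiescent cells, and Pabpn1 binds nuclear poly(A) and takes part in the choice of poly(A) site.

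The 3′ UTR of Myod1 holds the letters that Zfp36 proteins prefer, UAUUUAU, and this match is shown first because Myod1 is the RNA for which the regulators are known. In the annotation GENCODE vM21, the Myod1 3′ UTR is 705 bases long and holds 1 UAUUUAU, which starts at base 585 of the UTR, and 2 AUUUA pentamers. The UAUUUAU contains an AUUUA, so the counts overlap. Of 2307 genes with a 3′ UTR within 20% of that length, 18.6% hold at least 1 UAUUUAU, and the median number of AUUUA is 1. Zfp36 itself has 3 UAUUUAU sites in a 3′ UTR of 774 bases, where 19.4% of genes of like length have any. The sites below are written as DNA on the strand of the transcript (T stands for U), with the 7 bases of the core in capitals. They lie in the last exon of Myod1 (mm10, chr7:46378968-46378996, + strand) and, for Zfp36, on the - strand at chr7:28376966-28376994, chr7:28376951-28376979 and chr7:28376926-28376954.
Myod1 site: cccttgggctaTATTTATctcccaggcat
Zfp36 site 1: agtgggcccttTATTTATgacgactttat
Zfp36 site 2: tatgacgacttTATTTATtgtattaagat
Zfp36 site 3: agattttatagTATTTATatatattgggt

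The other regulators differed in how many such sites their own 3′ UTRs hold. Zfp36l1 and Zfp36l2 have 3 each, in UTRs of 1835 and 1822 bases, and 38.5 and 38.4% of genes of like length have any. Elavl1 has 8 in 4218 bases, where 62% of genes of like length have any, and some of the 8 overlap in a run of repeated TTTA. Stau1, Stau2, Hnrnpd and Pabpn1 have 0. The Hnrnpd UTR is the longest, with 5429 bases, and 68.6% of genes of like length hold at least 1 site. Among the other myogenic factors, Pax3 has 2 sites, and Myf5 and Pax7 have 0. A match describes letters in the annotated UTR and was not tested for binding.

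Promoters are shown for Zfp36 and Zfp36l1, the pair of regulators with the largest differences between groups. RefSeq promoter windows (GRCm38.p6, the same build as mm10, 250 bases before to 50 after the start) were found for 6 of the 8 genes, with 2 windows for Stau1. These windows were searched on both strands for the AP-1 letters TGANTCA, the CRE letters TGACGTCA, the Egr letters GCGNGGGCG, the letters TATAAA of a TATA box, and the CArG box, which is the element of serum response factor. Capitals mark the matches. In Zfp36 (chr7:28379179-28379478, - strand) they are an Egr match 105 bases before the start and a CArG box 58 bases before it. In Zfp36l1 (chr12:80112964-80113263, - strand) they are an AP-1 match 129 bases before the start and a TATA match 29 bases before it.
Zfp36 promoter: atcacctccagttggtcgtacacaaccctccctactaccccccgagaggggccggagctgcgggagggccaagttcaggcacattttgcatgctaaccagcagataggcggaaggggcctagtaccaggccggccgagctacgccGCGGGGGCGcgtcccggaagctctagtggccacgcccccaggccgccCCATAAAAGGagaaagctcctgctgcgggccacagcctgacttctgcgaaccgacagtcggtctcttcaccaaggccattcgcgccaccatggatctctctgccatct
Zfp36l1 promoter: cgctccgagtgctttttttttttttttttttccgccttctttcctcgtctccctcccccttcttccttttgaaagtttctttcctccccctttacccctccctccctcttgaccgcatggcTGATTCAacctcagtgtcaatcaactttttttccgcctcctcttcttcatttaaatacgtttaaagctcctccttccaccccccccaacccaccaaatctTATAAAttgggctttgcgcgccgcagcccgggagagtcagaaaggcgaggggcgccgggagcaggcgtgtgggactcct

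Of 32851 mouse promoter windows of the same 300 bases, 5.55% hold the Egr letters, 1.63% a CArG box, 7.81% the AP-1 letters, 1.79% the CRE letters and 13.6% the TATA letters. The Hnrnpd window holds a CArG box at the start itself. The windows of Elavl1, Stau1 and Pabpn1 hold none of the 5 motifs. The CArG box and AP-1 matches are found on both strands at the same bases and were counted once here. A match is not a site of binding, and the absence of a match says only that these letters are not in this window.

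Sequencing gave 12540745 to 62424851 reads on genes per library. At this depth 3 reads, taken as the limit of detection, are 0.0563 to 0.362 CPM, the reads on a gene scaled to a common library size with TMM factors. The libraries F 4, F 5, 5d-U 1 and 5d-U 6 stand apart, because they hold 0.64 to 7.24 reads per kb on gene families that are silent in muscle, such as olfactory receptors, while the other 8 hold 0.00966 to 0.229. Reads at that density would account for at most 7.86% of the reads of any regulator, in Stau2 of F 5, and for 4.25% of Zfp36 reads in 5d-U 1. These 4 libraries also hold reads on 33996 to 47398 genes, against 15365 to 23751 in the other 8. Shares and medians of all tested genes in comparisons with F or 5d-U can therefore include genes read mainly in these 4, which was not tested. The libraries were made from amplified cDNA and carry no molecular identifiers, so reads are not independent molecules. Satellite cell markers, including Pax7, Myf5 and Vcam1, summed to 2880 to 4460 CPM in 2+3d-C, to 1550 to 2200 in F, and to 968 to 1190 and 371 to 801 in the cultures 2d-U and 5d-U, and no marker of this list was at 3 reads or fewer throughout a group.

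Levels below are RPKM, which is this CPM per kb of exon, and differences are log2 fold changes from edgeR. A gene was called at a Benjamini-Hochberg adjusted p under 0.05 over the 22635 genes tested. Of the 8 regulators, 5 differed among the 4 groups by the test of any difference, namely Zfp36, Zfp36l1, Zfp36l2, Stau1 and Pabpn1, beside 44.3% of all tested genes. Elavl1, Stau2 and Hnrnpd did not pass in any pair of groups. Without the 4 libraries that stand apart, F and 5d-U keep 1 library each, and fewer of the 8 were called, as were fewer of all genes.

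**Figure D1:**
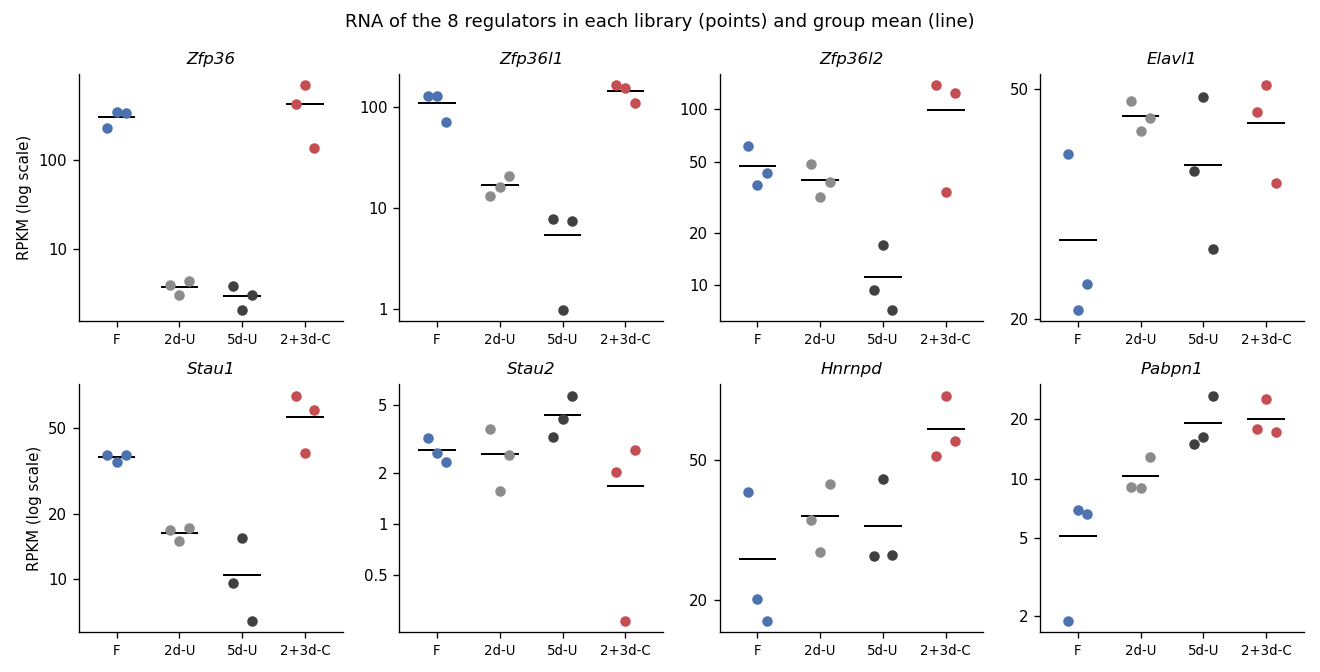
RPKM on a log scale (y axis, own range in each panel) of the 8 regulators in the 4 groups, with 1 point per library and a line at the mean of 3 libraries. Zfp36 sits at 135 to 680 RPKM in the 6 libraries of F and 2+3d-C and at 2.1 to 4.44 in the other 6, while Elavl1 stays between 20.7 and 50.9 in all 12.

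Zfp36 (ENSMUSG00000044786.6, chr7:28376784-28380253, - strand, mm10) had the widest range of the 8. Its level was 224, 338 and 327 RPKM in F 1, F 4 and F 5 (mean 297 ± 62.6, SD, n = 3). In 2d-U 1, 2 and 3 it was 3.96, 3.06 and 4.44 RPKM (3.82 ± 0.7), and in 5d-U 1, 2 and 6 it was 3.92, 2.1 and 3.06 RPKM (3.03 ± 0.911). In 2+3d-C 4, 5 and 10 it was 421, 680 and 135 RPKM (412 ± 273). All libraries of F and 2+3d-C lie above all of 2d-U and 5d-U. By RPKM, Zfp36 ranked between 87 and 405 among all genes in F and 2+3d-C, and between 6124 and 8462 in the uncompressed cultures. The lowest number of Zfp36 reads in any library was 209, in 5d-U 2.

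Relative to 5d-U, Zfp36 was higher in 2+3d-C by 7.09 on the log2 scale (136-fold, SE 0.64, edgeR quasi-likelihood test, adjusted p = 9.57e-06). Against 2d-U the log2 difference was 6.75 (SE 0.63, adjusted p = 1.05e-05). Relative to F, Zfp36 fell by 6.28 in 2d-U (SE 0.616, adjusted p = 2.73e-05) and by 6.61 in 5d-U (SE 0.626, adjusted p = 4.02e-05). Between 2+3d-C and F the ranges overlap, and the difference of 0.47 has a 95% interval of -0.57 to 1.52 (adjusted p = 0.524) and turns to -0.14 when libraries are scaled by total reads without TMM. 5d-U and 2d-U differed by -0.34 (95% interval -1.39 to 0.72, adjusted p = 0.681). Without the 4 libraries that stand apart, 1 F and 1 5d-U library remain, and the log2 difference of 5d-U against F was -6.73 with an adjusted p of 0.0516, while the other 3 differences were still called.

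Zfp36l1 (ENSMUSG00000021127.7, chr12:80107754-80113013, - strand), a paralog that binds the same elements, followed the same order of groups. Its level was 128, 129 and 70.5 RPKM in F (109 ± 33.5, n = 3) and 165, 152 and 109 in 2+3d-C (142 ± 29.4). In 2d-U it was 13.2, 16.1 and 20.6 RPKM (16.7 ± 3.74), and in 5d-U 7.72, 0.969 and 7.43 (5.37 ± 3.82). F and 2+3d-C overlap and lie above both uncompressed cultures, and all 5d-U libraries lie below all 2d-U libraries, with 5d-U 2 lowest at 83 reads. The log2 difference was 4.72 for 2+3d-C against 5d-U (SE 0.667, adjusted p = 0.000251) and 3.09 against 2d-U (SE 0.617, adjusted p = 0.00254). Relative to F, Zfp36l1 fell by 4.34 in 5d-U (adjusted p = 0.000476) and by 2.71 in 2d-U (adjusted p = 0.00456). With the replicate block, 2+3d-C against 2d-U (2.98, adjusted p = 0.122) and 2d-U against F (-2.25, adjusted p = 0.144) did not pass. Without the 4 libraries that stand apart, 5d-U 2 alone stands for 5d-U, and the differences were 7.19 for 2+3d-C against 5d-U (adjusted p = 0.0033) and -7.03 for 5d-U against F (adjusted p = 0.0135).

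The step from 2d-U to 5d-U did not pass for Zfp36l1. The difference was -1.63 (SE 0.586, 95% interval -2.88 to -0.38, adjusted p = 0.106), and it passed with DESeq2 (-1.81, adjusted p = 0.0387) and without the filter on low counts (-1.97, adjusted p = 0.00705). Between 2+3d-C and F, Zfp36l1 differed by 0.38 (95% interval -0.84 to 1.6, adjusted p = 0.679), which becomes -0.1 without TMM.

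Zfp36l2 (ENSMUSG00000045817.8, chr17:84183931-84187947, - strand), a further paralog, had overlapping levels in F and 2d-U. It was at 62, 37.1 and 43.8 RPKM in F (47.6 ± 12.9, n = 3) and 49.3, 31.7 and 38.5 in 2d-U (39.8 ± 8.88). In 5d-U it was 9.4, 17 and 7.25 RPKM (11.2 ± 5.11), and in 2+3d-C 138, 34.1 and 124 (98.7 ± 56.4). The 5d-U group lies below every other group. 2+3d-C 5 lies below every F library and within the range of 2d-U, while 2+3d-C 4 and 10 lie above both F and 2d-U. Zfp36l3, which completes the family, did not pass the filter on low counts, with a mean of 0.228 RPKM in F and 0.00695 in 5d-U and no read in the other groups.

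The log2 difference of Zfp36l2 in 2+3d-C against 5d-U was 3.14 (SE 0.542, adjusted p = 0.00107), and in 5d-U against F it was -2.09 (SE 0.519, adjusted p = 0.00982). With the replicate block these were 3.07 (adjusted p = 0.0532) and -2.3 (adjusted p = 0.152). With the 4 libraries that stand apart left out, these were 2.54 (adjusted p = 0.131) and -1.86 (adjusted p = 0.366). In 2d-U against F the difference was -0.26 (95% interval -1.32 to 0.81, adjusted p = 0.691). For 2+3d-C against 2d-U it was 1.31 (SE 0.507, adjusted p = 0.0727), which passed with DESeq2 (1.29, adjusted p = 0.0445), at a mean of at least 5 CPM (1.34, adjusted p = 0.0376) and when 2+3d-C 5 was left out (1.72, adjusted p = 0.0109). For 5d-U against 2d-U it was -1.83 (SE 0.515, adjusted p = 0.0718), and it passed with DESeq2 (-2.05, adjusted p = 0.00264), with no filter (-2.05, adjusted p = 0.00488), with the 2 groups alone (-2.13, adjusted p = 0.0352) and when 5d-U 2 (-2.26, adjusted p = 0.0482) or 2+3d-C 5 (-1.83, adjusted p = 0.0278) was left out.

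Within the family, the member with the most RNA per length changed between groups. These shares describe the 3 genes together and carry no test. Zfp36 made up 54.2 to 74.1% of the summed RPKM of the 3 genes in F and 36.7 to 78.5% in 2+3d-C, but 5.96 to 6.98% in 2d-U and 10.5 to 18.6% in 5d-U. Zfp36l2 made up 60.5 to 74.2% in 2d-U, and its share in 5d-U was 44.7, 84.7 and 40.9% in replicates 1, 2 and 6. The summed level was 414 to 504 RPKM in F and 368 to 866 in 2+3d-C, and 50.9 to 66.5 and 17.7 to 21 in 2d-U and 5d-U, so no library of 5d-U reached the lowest of 2d-U. In 5d-U 6 the largest share was that of Zfp36l1, at 41.9%.

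**Figure D2:**
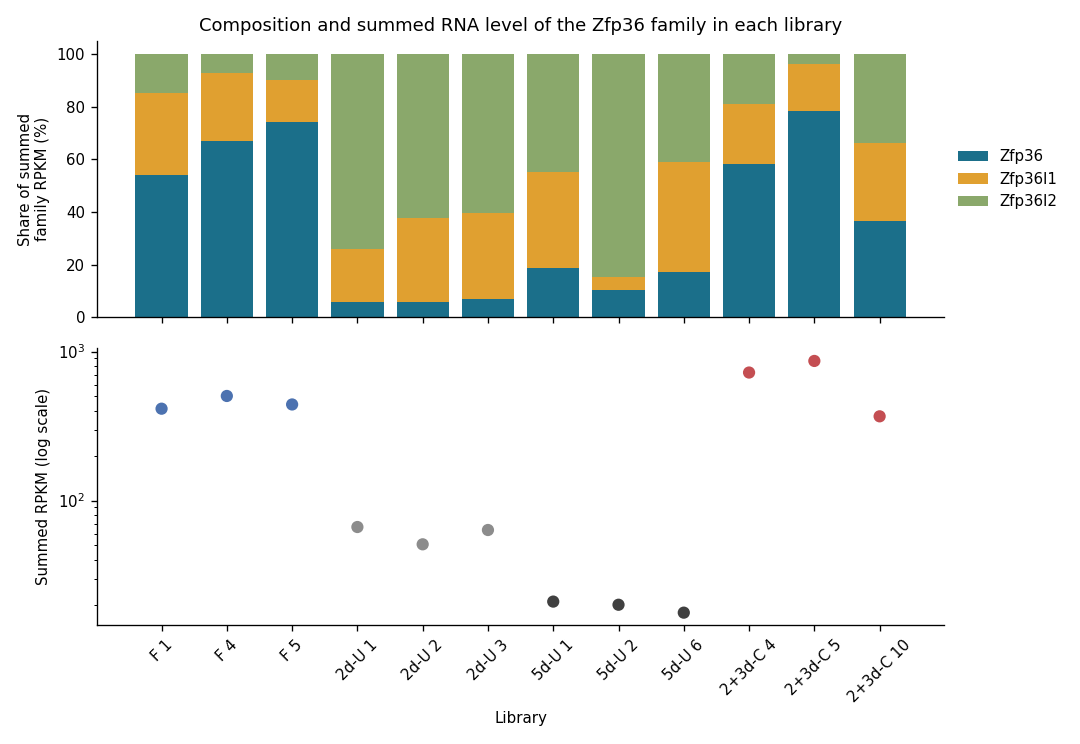
Share of each Zfp36 family gene in the summed RPKM of the 3 genes (upper, percent, stacked bars) and the summed RPKM on a log scale (lower, 1 point per library, colored by group) for the 12 libraries. The Zfp36 share is at most 18.6% in the 6 uncompressed culture libraries and at least 36.7% in F and 2+3d-C, and the sum is 17.7 to 66.5 RPKM in the former and 368 to 866 in the latter.

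Elavl1 (ENSMUSG00000040028.10, chr8:4285382-4325413, - strand), the stabilizing protein of the set, was at a like level in all groups. It was at 38.6, 20.7 and 23 RPKM in F (27.4 ± 9.71, n = 3) and at 47.8, 42.3 and 44.6 in 2d-U (44.9 ± 2.77). In 5d-U it was 36.1, 48.5 and 26.4 RPKM (37 ± 11.1), and in the 2+3d-C libraries 45.6, 50.9 and 34.4 (43.6 ± 8.43). All pairs of groups overlap except 2d-U and F, where every 2d-U library is higher. That difference was 0.71 (SE 0.377, 95% interval -0.09 to 1.52, adjusted p = 0.128) and passed when F 1 was left out (0.95, adjusted p = 0.0489). For 2+3d-C against 5d-U the difference was 0.24 with a 95% interval of -0.56 to 1.04 (adjusted p = 0.637).

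As a description of the balance between the decay factor and the stabilizing factor, the ratio of Zfp36 to Elavl1 RPKM was 5.82, 16.3 and 14.2 in F and 9.22, 13.4 and 3.92 in 2+3d-C. It was 0.0723 to 0.0995 in 2d-U and 0.0433 to 0.116 in 5d-U. The ratio of RNA levels says nothing of the amounts of protein.

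Hnrnpd (ENSMUSG00000000568.15, chr5:99955935-99978938, - strand) was highest in 2+3d-C, but no difference passed. Its level was 40.7, 20.1 and 17.4 RPKM in F (26.1 ± 12.8, n = 3), 33.8, 27.4 and 42.9 in 2d-U cells (34.7 ± 7.78) and 26.6, 44.3 and 26.8 in 5d-U (32.6 ± 10.2). In 2+3d-C it was 51.4, 76.5 and 56.7 RPKM (61.5 ± 13.2), above every library of the other groups. The log2 difference was 0.92 against 5d-U (SE 0.416, 95% interval 0.03 to 1.81, adjusted p = 0.107). It was 0.83 against 2d-U (adjusted p = 0.159). Against F it was 1.24 (SE 0.418, adjusted p = 0.0811). When F 1 was left out, the differences against 5d-U (1.19, adjusted p = 0.0304) and F (1.57, adjusted p = 0.0408) passed, and both passed with DESeq2 (1.1, adjusted p = 0.0197, and 1.04, adjusted p = 0.0465).

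Stau1 (ENSMUSG00000039536.16, chr2:166947549-166996299, - strand), a double-stranded RNA binding protein, was lower in both uncompressed cultures than in F and 2+3d-C. It was at 37.5, 34.8 and 37.7 RPKM in F (36.7 ± 1.6, n = 3) and at 70.8, 38.5 and 60.7 in 2+3d-C (56.7 ± 16.5). In 2d-U it was 17, 15.1 and 17.2 RPKM (16.4 ± 1.14), and in 5d-U 9.57, 15.5 and 6.42 (10.5 ± 4.61). Every 2+3d-C library lies above every F library, although 2+3d-C 5 exceeds F 5 by little, and 2d-U and 5d-U overlap.

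Stau1 rose by 2.43 in 2+3d-C against 5d-U (5.4-fold, SE 0.409, adjusted p = 0.000899) and by 1.79 against 2d-U (SE 0.4, adjusted p = 0.00521). Relative to F it fell by 1.8 in 5d-U (SE 0.4, adjusted p = 0.00494) and by 1.16 in 2d-U (SE 0.393, adjusted p = 0.0323). The fall at 2 days did not pass when F 4, F 5, 2d-U 1, 2d-U 2 or 2d-U 3 was left out (-1.19, -1.14, -1.17, -1.09 and -1.18, adjusted p = 0.0684, 0.0793, 0.0993, 0.101 and 0.0993), without TMM (-1.05, adjusted p = 0.0677), with no filter (-1.06, adjusted p = 0.0795) or with the replicate block (-1.34, adjusted p = 0.353), so that it was called in 4 of 8 other settings. Nor did the difference of 2+3d-C against 2d-U pass without TMM (1.24, adjusted p = 0.0576) or with the replicate block (1.87, adjusted p = 0.359). With the block, 2+3d-C against 5d-U (2.26, adjusted p = 0.133) and 5d-U against F (-1.74, adjusted p = 0.283) did not pass either. Without the 4 libraries that stand apart, the differences were 1.87 for 2+3d-C against 5d-U (adjusted p = 0.0744), -1.27 for 5d-U against F (adjusted p = 0.318) and -1.17 for 2d-U against F (adjusted p = 0.12). Between 2+3d-C and F, Stau1 differed by 0.63 (95% interval -0.2 to 1.46, adjusted p = 0.256).

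Stau2 (ENSMUSG00000025920.19, chr1:16228674-16520112, - strand), the paralog of Stau1, was low throughout. It was at 3.19, 2.61 and 2.33 RPKM in F (2.71 ± 0.439, n = 3), 3.61, 1.57 and 2.54 in 2d-U cells (2.57 ± 1.02) and 3.24, 4.13 and 5.69 in 5d-U (4.35 ± 1.24). In 2+3d-C it was 2.03, 0.269 and 2.72 RPKM (1.67 ± 1.26), and the low value of 2+3d-C 5 rests on 15 reads in the library with the fewest reads. All 2+3d-C libraries lie below all 5d-U libraries, but the difference of -1.37 (SE 0.679, 95% interval -2.82 to 0.08) did not pass (adjusted p = 0.128). The ratio of Stau1 to Stau2 RPKM, given as a description, was 22.4 to 143 in 2+3d-C and 11.7 to 16.2 in F, but 4.71 to 9.6 in 2d-U and 1.13 to 3.76 in 5d-U.

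Pabpn1 (ENSMUSG00000022194.15, chr14:54892500-54898169, + strand) ran in another direction, being lowest in F. Its level was 1.89, 6.9 and 6.61 RPKM in F (5.14 ± 2.81, n = 3) and 9.11, 8.92 and 12.9 in 2d-U (10.3 ± 2.23). In 5d-U it was 15, 16.2 and 26.4 RPKM (19.2 ± 6.26), and in 2+3d-C 17.9, 25.4 and 17.3 (20.2 ± 4.48). F, 2d-U and 5d-U do not overlap one another, 5d-U and 2+3d-C do, and the F 1 value rests on 138 reads.

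Pabpn1 was higher than in F by 1.9 in 5d-U (SE 0.511, adjusted p = 0.0153) and by 1.97 in 2+3d-C (SE 0.512, adjusted p = 0.0374). The first did not pass without F 1 (1.05, adjusted p = 0.139) or 5d-U 6 (1.62, adjusted p = 0.0763), nor without TMM (1.45, adjusted p = 0.062), with no filter (1.73, adjusted p = 0.0527) or with the replicate block (3.02, adjusted p = 0.113), and was called in 4 of 8 other settings. The second was called in only 2 of 8 other settings, DESeq2 and no filter, and did not pass without F 4 (2.25, adjusted p = 0.0931), F 5 (2.19, adjusted p = 0.0915), 2+3d-C 5 (1.79, adjusted p = 0.0881) or 2+3d-C 10 (2.08, adjusted p = 0.0516). Without the 4 libraries that stand apart, neither passed (3.1, adjusted p = 0.101, and 3.42, adjusted p = 0.233). Compressed and uncompressed cells at day 5 differed by 0.07 (95% interval -0.98 to 1.13, adjusted p = 0.919). In the annotation, 21.4% of the exon bases of Pabpn1 also belong to Gm20521 on the same strand, which is listed at 0 reads in all 12 libraries, and reads on such bases were left out of both genes.

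Set out by comparison, 4 of the 8 regulators were higher after compression than in 5d-U (Zfp36, Zfp36l1, Zfp36l2 and Stau1) and 0 were lower, beside 9.14% of all tested genes higher and 13.4% lower. The median log2 difference of the 8 was 1.68, and that of all tested genes was -1.05. 5d-U 1 and 5d-U 6 hold reads on 39063 and 33996 genes, against 15365 to 20724 in 2+3d-C, and the part of this in the median of all genes was not tested. Leaving out the 4 libraries that stand apart, 2 were called (Zfp36 and Zfp36l1). Against 2d-U, 3 were higher (Zfp36, Zfp36l1 and Stau1) and 0 lower, beside 16% higher and 8.63% lower of all genes. The median of the 8 was 1.14, and that of all genes was 0. Against F, 1 was higher (Pabpn1) and 0 lower, beside 1.94% and 4.47% of all genes. The number called was 2 without F 1, beside 10063 of 27750 genes. It was 0 without F 4, F 5, 2+3d-C 5 or 2+3d-C 10, beside 248 to 871 genes called. These 3 comparisons share the 2+3d-C libraries.

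In culture without compression, 4 regulators fell from F to 5d-U (Zfp36, Zfp36l1, Zfp36l2 and Stau1) and 1 rose (Pabpn1), beside 8.9% of all genes lower and 11.6% higher, and without the 4 libraries that stand apart 1 was called (Zfp36l1). From F to 2d-U, 3 fell (Zfp36, Zfp36l1 and Stau1) and 0 rose, beside 33.3% of all genes lower and 10.6% higher. The number that fell is near the share of all genes, and the median of the 8 was -0.17, beside -1.63 for all tested genes. F 4 and F 5 hold reads on 44817 and 47398 genes, against 15467 to 17367 in 2d-U. The part of this in the share and median of all genes was not tested. Between 2d-U and 5d-U, 0 of the 8 were called by edgeR, beside 1.87% of all genes higher and 0.243% lower in 5d-U. In that pair, Zfp36l1 and Zfp36l2 had an unadjusted p under 0.05 (0.0141 and 0.00301), and both were called by DESeq2. Comparisons with F share the F libraries, and those with 5d-U share the 5d-U libraries.

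**Figure D3:**
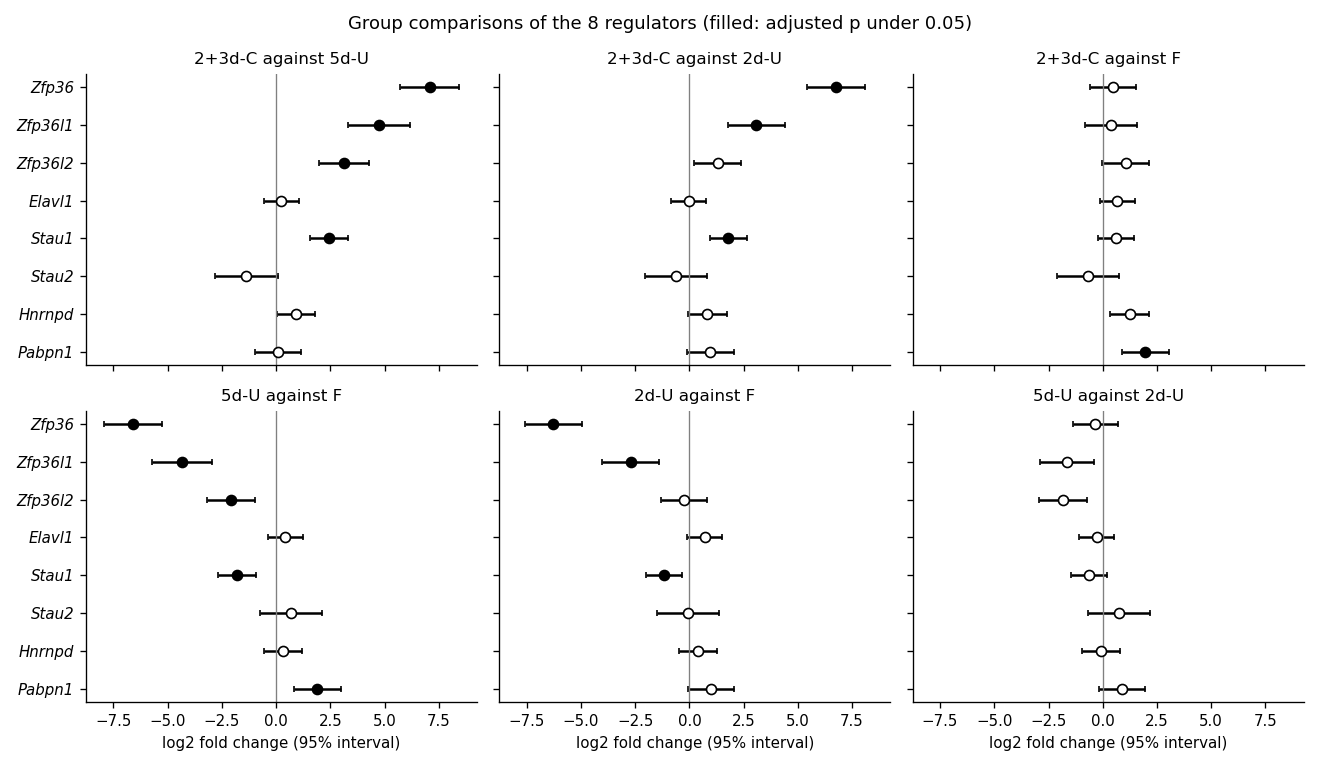
Log2 fold change with its 95% interval (x axis) of each regulator (y axis) in the 6 pairs of groups, with filled points at an adjusted p under 0.05. Zfp36 is at 7.09 and 6.75 in 2+3d-C against 5d-U and 2d-U, at -6.61 and -6.28 in 5d-U and 2d-U against F, and near 0 in the other pairs, and Elavl1 and Stau2 have no filled point.

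Sums of endothelial, fibroadipogenic, glial and erythroid markers were higher in F and 2+3d-C than in the uncompressed cultures, as were Zfp36, Zfp36l1 and Stau1. Endothelial, fibroadipogenic and glial sums were lower in 2+3d-C than in F, and erythroid sums overlapped. Of the single markers, 1 of 5 endothelial, 0 of 5 fibroadipogenic and 0 of 3 glial were called lower in 2+3d-C than in F. The fibroadipogenic marker Dpt was at 120 to 218 RPKM in 2+3d-C and 58.6 to 88.2 in F. Zfp36 and Zfp36l1 overlapped between these groups, and Stau1 was not lower in 2+3d-C. The 5 endothelial markers summed to 806 to 1090 CPM in F and 77.5 to 183 in 2+3d-C, against 2.73 to 5.52 in 2d-U and 2.06 to 26.4 in 5d-U. The 5 fibroadipogenic markers summed to 2090 to 5720, 443 to 972, 0.705 to 11.4 and 8.65 to 54.1 CPM in the same order. The 3 glial markers were at 182 to 250 CPM in F, 71.8 to 131 in 2+3d-C and at most 7.35 in the uncompressed cultures, and the 3 erythroid markers (hemoglobin genes) were at 110 to 536 CPM in F, 18 to 245 in 2+3d-C and at most 0.342 in the uncompressed cultures. In 2+3d-C against 5d-U, 4 of 5 endothelial, 3 of 5 fibroadipogenic, 2 of 3 glial and 3 of 3 erythroid markers were higher. Of the 6 satellite cell markers, the number higher in 2+3d-C was 2 against 5d-U (Vcam1 and Pax7), 1 against 2d-U (Vcam1) and 1 against F (Pax7), and 0 were lower. Their sum was highest in 2+3d-C, where the adhesion molecule Vcam1 averaged 280 RPKM against 115 in F, but Cd34 averaged 27.6 RPKM in 2+3d-C against 56.9 in F.

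The remaining marker lists moved in other ways. The 7 immune markers summed to 718 to 2120 CPM in F and 37.1 to 99.8 in 2+3d-C, where 2 of the 7 were at 3 reads or fewer in every library, and to 0.665 to 2.44 in 2d-U and 1.61 to 117 in 5d-U. In that order of groups, the 4 smooth muscle and pericyte markers summed to 647 to 868, 249 to 390, 62.7 to 87.8 and 57.7 to 730 CPM. The 4 myofiber markers summed to 27.6 to 2450, 59.9 to 176, 49.2 to 87.2 and 159 to 2440 CPM. All groups came from cells sorted for ZsGreen, and the study describes nearly all sorted cells as positive for Pax7. The part of these other cells in the levels of the Zfp36 family and Stau1 was not tested, and in these bulk libraries fewer cells of a type and less RNA per cell cannot be told apart.

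**Figure D4:**
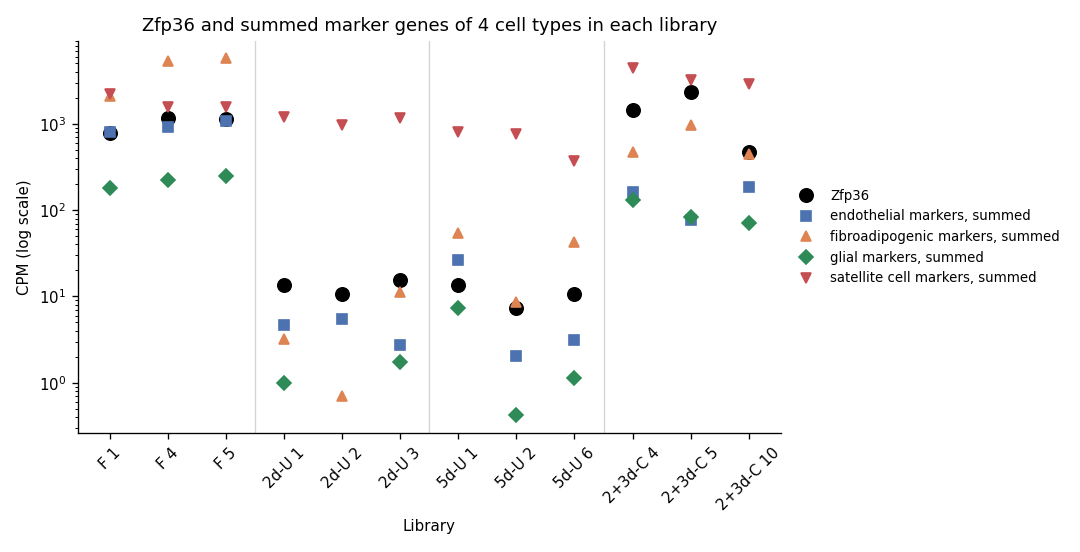
Zfp36 (black circles) and the summed CPM of endothelial, fibroadipogenic, glial and satellite cell markers on a log scale (y axis) in each of the 12 libraries (x axis, groups parted by grey lines, and a sum of 0, as for glial markers in 2d-U 2, not drawn). Endothelial, fibroadipogenic and glial sums are high in F, between 71.8 and 972 CPM in 2+3d-C and at most 54.1 CPM in 2d-U and 5d-U, while satellite cell markers are at least 371 CPM in every library.

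Myod1, the RNA on which some of these regulators are known to act, was abundant in every group and highest in 2+3d-C. It was at 597, 297 and 574 RPKM in F (489 ± 167, n = 3), 741, 644 and 580 in 2d-U cells (655 ± 81.3) and 604, 949 and 1280 in 5d-U (944 ± 337). In 2+3d-C it was 2770, 4550 and 2240 RPKM (3190 ± 1210), above all other libraries, and it ranked between 5 and 8 among all genes there. Myod1 was higher in 2+3d-C by 2.7 against F (SE 0.45, adjusted p = 0.00559), by 2.28 against 2d-U (SE 0.442, adjusted p = 0.00206) and by 1.76 against 5d-U (SE 0.434, adjusted p = 0.0101). Relative to F, Myod1 was not called in 2d-U (0.42, SE 0.423, adjusted p = 0.429), where the ranges overlap. Nor was it called in 5d-U (0.95, SE 0.426, adjusted p = 0.143), although every 5d-U library lies above every F library. Thus the Zfp36 and Myod1 RNAs were both high in 2+3d-C. F and the uncompressed cultures differed in Zfp36, while Myod1 had a higher mean in both cultures than in F but no called difference. Counts give the amount of RNA and not its rate of decay or translation.

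The other myogenic factor RNAs were also higher in mean in 2+3d-C. Pax7 was at 14.4, 15.1 and 10.3 RPKM in 2+3d-C (13.3 ± 2.56, n = 3) and at 1.52 to 6.47 elsewhere, and it was higher by 1.57 against 5d-U (adjusted p = 0.0274) and by 2.4 against F (adjusted p = 0.0151), with 1.2 against 2d-U (adjusted p = 0.0723). Pax3 was at 1.7, 1.97 and 1.65 RPKM in 2+3d-C and at 0.0537 to 0.696 elsewhere. It was higher by 2.75 against 2d-U (SE 0.874, adjusted p = 0.0336), with 1.83 against 5d-U (adjusted p = 0.112). Myf5 was at 91.6, 107 and 178 RPKM in 2+3d-C and at 62.4 to 91.2 in 5d-U, and no pair of groups passed.

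**Figure D5:**
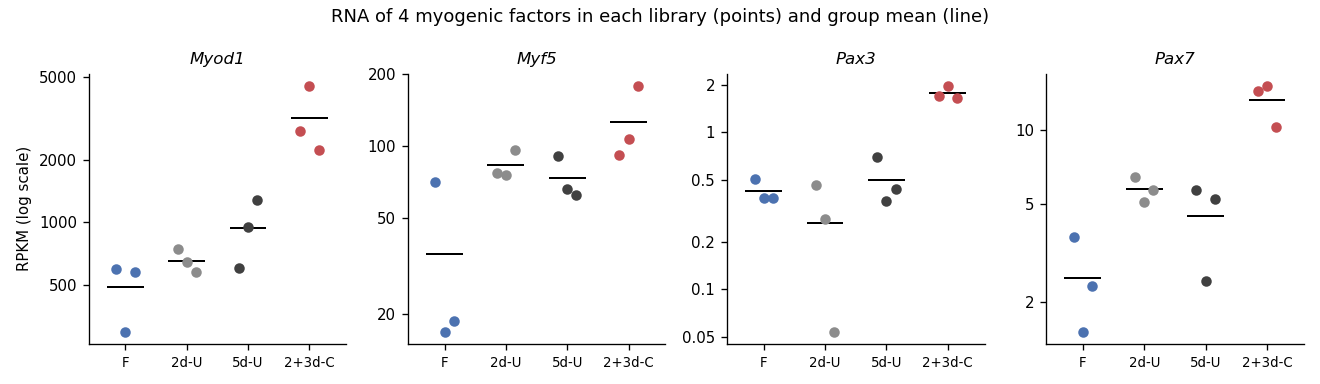
RPKM on a log scale (y axis, own range in each panel) of Myod1, Myf5, Pax3 and Pax7 in the 4 groups, with 1 point per library and a line at the mean of 3 libraries. Myod1 is at 2240 to 4550 RPKM in 2+3d-C and at 297 to 1280 in the other libraries, and Pax3 stays below 2 RPKM in all of them.

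Genes known as partners, targets or upstream signals of the regulators were read as lists. These lists were chosen with earlier results of these data known, so their counts are descriptions. Most of the 17 RNAs with AU-rich elements bound by Zfp36 were called in the direction of Zfp36. In 2+3d-C against 5d-U, 13 of 17 were higher and 0 lower (median 5.33), beside 9.14% of all tested genes higher (median -1.05). Against 2d-U 12 were higher and 0 lower (median 5.92), beside 16% of all genes higher (median 0). Relative to F, 16 of 17 fell in 2d-U and 13 in 5d-U, where 33.3% and 8.9% of all genes fell. In 2+3d-C against F, 1 was higher (Myc) and 2 lower (Il1b and Il10), beside 1.94% and 4.47% of all genes. The cytokine Il1b averaged 0.487 RPKM in 2+3d-C, 2.85 in 5d-U cells and 22.3 in F, and Ptgs2, a prostaglandin synthase, 1.36, 1.42 and 56.6. Il10 averaged 3.12 RPKM in F and 0.0802 in 5d-U and had no read in 2+3d-C. Fos, which encodes a subunit of AP-1, rose by 7.3 in 2+3d-C against 5d-U (SE 0.667, adjusted p = 9.83e-06). Cxcl1, a chemokine and the most abundant of the list, was at 1160 to 18900 RPKM in 2+3d-C and 0.167 to 4.92 in 5d-U. Nfkbiz, a regulator of NF-kB, and the kinase gene Pim1 rose by 5.86 and 7.5.

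Immediate-early genes, which cells transcribe within minutes of a stimulus and to which Zfp36 itself belongs, were higher in F and 2+3d-C than in the uncompressed cultures. In 2+3d-C against 5d-U, all 10 of the list were higher (median 6.01), as they were against 2d-U (median 6.87), and all 10 fell from F to 2d-U and to 5d-U, beside the shares of all genes just given. Egr1 was at 775 to 1620 RPKM in F and 1200 to 2300 in 2+3d-C, but at 7.72 to 20.2 in 2d-U and 1.94 to 13.6 in 5d-U. Nr4a1, a nuclear receptor, and Atf3, a stress factor, rose by 7.42 and 6.64 in 2+3d-C against 5d-U. Fos stands in both lists. The immediate-early genes ran high and low in the same groups as the endothelial, fibroadipogenic and glial sums, as did most of the RNAs bound by Zfp36. The exceptions were Il1b, Il10 and Ptgs2, and Tnf, Ccl3, Csf2 and Vegfa, whose ranges in F or 2+3d-C overlapped those of an uncompressed culture. The part of endothelial, fibroadipogenic and glial cells in the lists was not tested.

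The effectors of decay did not move as a block. The counts that follow stand beside 9.14% of all tested genes higher and 13.4% lower in 2+3d-C against 5d-U, with a median of -1.05. Of 18 deadenylases and their recruiters, 4 were higher and 2 lower with compression than in 5d-U (median 0.3), of which the number lower is near the share of all genes. The 3 with the smallest p were the recruiters Btg1, Btg2 and Tob2, which rose by 3.87, 3.89 and 3. Among the 15 decapping and 5′ decay genes, 2 were higher and 6 lower (median -0.95), and all 6 that fell encode Lsm proteins, of which Lsm6 fell by 2.72, Lsm4 by 2.46 and Lsm2 by 2.03. Of 15 tested RNA exosome genes and cofactors 0 were higher and 4 lower (median -1.01), with Exosc7 falling by 3.27, Exosc8 by 3 and Exosc4 by 2.05, and 9 of the 15 were higher in 2d-U and in 5d-U than in F, beside 10.6% and 11.6% of all genes. The medians of the decapping and exosome lists were close to that of all genes. Exosc8 was at 3.5 to 12.1 RPKM in F and 8.39 to 13.3 in 2+3d-C, but at 50 to 52.4 in 2d-U and 55 to 153 in 5d-U. Of 8 Upf and Smg factors 3 were higher and 0 lower (median 0.55), among them Upf1 by 2.44 and Smg1 by 1.84.

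The other lists of RNA-binding proteins were read against the same shares of all genes, 9.14% higher and 13.4% lower. Of 13 tested AU-rich element binding proteins besides the 8, 3 were higher with compression than in 5d-U and 0 lower (median 0.55), and these were the endonuclease gene Zc3h12a (5.72, adjusted p = 4.66e-05), Khsrp (2.06) and Tial1 (1.3). Hnrnpab, the most abundant of them, differed by -0.01. Of 20 tested genes for poly(A) binding and 3′ end processing, 2 were higher and 3 lower (median -0.35), near the shares of all genes, among them Pcf11 (2.93), Cpsf3 (-2.06) and Nudt21 (-1.65), while Pabpc1, the most abundant, differed by 0.52 (adjusted p = 0.39). Of 12 other translational regulators (median -0.23), 2 rose, among them Igf2bp2 by 2.25, and Fxr1 fell by 1.74, and Ybx1, the most abundant, differed by -1.19 (adjusted p = 0.101).

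The p38 pathway, whose kinase Mapkapk2 phosphorylates and restrains Zfp36 protein, and the control of eIF2α, which holds translation low in quiescent MuSCs, were read as a list of 17. In 2+3d-C against 5d-U 6 were higher and 1 lower (median 0.56), beside 9.14% and 13.4% of all genes. Ppp1r15a, a phosphatase subunit for eIF2α and the most abundant, rose by 5.46 (adjusted p = 1.52e-05), Dusp1, a phosphatase of p38 that also stands among the immediate-early genes, by 5.38 and Ppp1r15b by 4.04. Mapkapk2 was at 87.4 to 92.5 RPKM in F and 65.7 to 175 in 2+3d-C, but at 31.8 to 42.5 in 2d-U and 14.5 to 38.2 in 5d-U.

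The genes most like each regulator were found by Pearson's r of log2 CPM over the 12 libraries, among 10815 genes whose mean reached 5 CPM. The points share groups, depth and the libraries that stand apart, so r is a description. For Zfp36 they were Tapbp (r = 0.99), Sfrp5 and H2-Q6 (both 0.989), for Zfp36l1 Thra (0.972), Bcl3 (0.966) and Chodl (0.965), and for Zfp36l2 Ltbp1 (0.966), Champ1 (0.965) and Vegfa (0.961). Stau1 was most like Mapkapk2 (0.986), Med26 (0.981) and Pex5 (0.98), and Stau2 most like 5730455P16Rik (0.972), Mageh1 (0.957) and Aste1 (0.943). Elavl1 was most like Cnot10 (0.954), Cdca4 (0.934) and Dync1li1 (0.921), and Hnrnpd most like Prmt6 (0.967), Prps1l3 (0.96) and Trmt10c (0.93). For Pabpn1 they were Tmem150a (0.911), Nr2c2ap (0.909) and Aen (0.904).

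Among the 8 regulators themselves, r was 0.904 between Zfp36 and Zfp36l1, 0.9 between Zfp36l2 and Stau1, 0.869 between Zfp36 and Stau1 and 0.756 between Elavl1 and Hnrnpd. Elavl1 and Stau1 had an r of 0.0124. Pabpn1 had no r above 0.362 with any other regulator.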

How the data were processed

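Single-end reads were mapped by the authors to mm10 in an nf-core pipeline. They deposited raw read counts per gene, made with featureCounts 1.6.4 on the exons of GENCODE vM23 without regard to strand, so reads from a gene and its antisense partner cannot be told apart. Such partners share 3.6% of the exon bases of Zfp36, 2.97% of Zfp36l2, 1.97% of Elavl1 and 6.32% of Hnrnpd. The deposited merged table holds the same counts and was not used. The tests were run on these counts with edgeR 4.0.16 in R 4.3.3 (TMM scaling, filterByExpr, 22635 genes, 1 quasi-likelihood model over the 12 libraries, two-sided tests, Benjamini-Hochberg adjustment). RPKM used the exon lengths in the files, and log2 CPM a prior count of 2. Myod1 sites and UTRs came from the vM21 transcript with the longest coding sequence of each of 21672 genes, and promoters from RefSeq.

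Libraries were grouped by their labels. The study states that experiments were done at least 3 times and that cells of a sort were assigned to conditions by chance, but the sources used here do not tie single libraries to an animal, batch or culture, so p-values measure the spread between libraries, which may be technical. With 3 libraries against 3, an exact permutation test cannot go below 0.1, so none was made. The regulators and gene lists were chosen with earlier results of these data known. All 8 regulators and Myod1, Myf5, Pax3 and Pax7 were named. Of each list, up to 3 called genes with the smallest p in 2+3d-C against 5d-U and the gene with the highest mean CPM were named, and the 3 most similar genes of each regulator. Genes named beside them (Mapkapk2, and the other called genes of short lists) were chosen after their values were seen. In the poly(A) list, 20 of 21 symbols matched. The procedure was tested on simulated data. Alternatives were DESeq2 1.42.0, library size without TMM, no filter, a mean of at least 5 CPM, the replicate block, the 2 compared groups alone, subtraction of reads expected from silent gene families (1870 genes), each library left out in turn and, added after the data were seen, a fit that leaves out the 4 libraries above 0.5 such reads per kb. Single values of some genes in the lists are not reported here.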

Additional observations from a re-analysis of the deposited data

How the results depend on the processing

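Labels give several groups the same replicate numbers. The deviations of same-numbered libraries from their group means correlated at -0.424 to 0.0322. Such deviations, from 3 libraries per group, also hold differences in silent-family reads. In the pair at -0.424 these were 0.229 per kb in F 1 and 3.84 in 5d-U 1. The correlations therefore cannot decide whether a shared number marks a shared sort. The number of all genes called moved with the setting too. With the replicate block and 2 residual degrees of freedom, 3826 of 22635 genes were called for 2+3d-C against 5d-U, 1926 against 2d-U and 1960 against F. It called 1261 for 5d-U against F, 2739 for 2d-U against F and 6508 for any difference. In the same order, the number of regulators called was 2 of 8, 1, 0, 2, 1 and 3. Without the 4 libraries with many silent-family reads it was 2 for 2+3d-C against 5d-U, 0 against F, 1 for 5d-U against F and 3 for any difference. For 2+3d-C against F it was 2 with DESeq2 and 0 with library size without TMM, a mean of at least 5 CPM, the 2 groups alone or silent-family reads subtracted. Of all genes, these settings called 4130 of 22635, 1359 of 22635, 788 of 10816, 1525 of 16696 and 1150 of 18668. With a library left out, 2 regulators were called without F 1, beside 10063 of 27750 genes. Without F 4, F 5, 2+3d-C 5 or 2+3d-C 10, 0 were called, beside 248 of 23830, 305 of 22743, 650 of 27911 and 871 of 27891 genes. For 5d-U against 2d-U the number of regulators called was 2 with DESeq2 or no filter, 1 with the 2 groups alone and 0 to 1 with a library left out (1 without 5d-U 2 or 2+3d-C 5). Of all genes, DESeq2 called 2833 of 22635, no filter 2066 of 49901 and the 2 groups alone 768 of 14548. Without 5d-U 2 or 2+3d-C 5 these were 821 of 27076 and 849 of 27911. The causes were not tested, beyond the fewer libraries or degrees of freedom that the block and the reduced fits leave.

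Zfp36 in 2+3d-C against 5d-U kept its call in all 8 other settings (6.65 to 7.61) and all 12 fits with a library left out (6.52 to 7.5). DESeq2 moved the median of all genes by -0.4 to 0.17 and library size without TMM by -0.52 to 0.07, depending on the comparison. Directions turned for values that were not called. Without TMM these were Zfp36 (-0.14) and Zfp36l1 (-0.1) in 2+3d-C against F, Pabpn1 in 2+3d-C against 5d-U (-0.05) and Stau2 in 2d-U against F (0.04, and 0.02 with no filter). DESeq2 gave -0.06 for Hnrnpd in 5d-U against F. With the replicate block the log2 difference of Pabpn1 in 2+3d-C was -1.36 relative to 5d-U and -0.57 relative to 2d-U, Elavl1 0.97 in 2+3d-C against 2d-U, and Hnrnpd -0.33 in 5d-U against F, -0.51 in 2d-U against F and 0.17 in 5d-U against 2d-U. Without the 4 libraries, Elavl1 was -0.15 in 2+3d-C against 5d-U and 0.1 in 5d-U against 2d-U, and Hnrnpd -0.21 in 2d-U against F and 0.34 in 5d-U against 2d-U. With a library left out, Pabpn1 in 2+3d-C against 5d-U ranged from -0.13 to 0.39, Elavl1 in 2+3d-C against 2d-U from -0.17 to 0.1, Zfp36 in 2+3d-C against F from -0.08 (without 2+3d-C 5) to 0.9, Stau2 in 2d-U against F from -0.39 to 0.2 and Hnrnpd in 5d-U against 2d-U from -0.42 to 0.09. Where a group is left with 1 library, that library is assumed to vary like the others.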
